A study of Homo sapiens with 12 samples.

Results

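The ERBB family consists of the receptor tyrosine kinases EGFR, ERBB2, ERBB3 and ERBB4, and the EGF-family ligands EGF, TGFA, AREG, EREG, BTC and HBEGF bind to them. These 10 genes were looked up by symbol among 14884 measured gene symbols, and where a symbol had several probesets, the one with the highest mean stood for it. Of the 10 genes, 7 were measured, each by 1 probeset. These were 3 of the 4 receptors (EGFR, ERBB3 and ERBB4) and 4 of the 6 ligands (EGF, EREG, BTC and HBEGF). ERBB2, TGFA and AREG were not analysed here.

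Ligand binding lets ERBB receptors form homodimers or heterodimers, whose kinase domains phosphorylate tyrosines in the receptor tails. Adaptor proteins dock there and pass the signal to the RAS-ERK, PI3K-AKT and STAT pathways. ERBB2 has no known direct ligand and ERBB3 has only weak kinase activity, so both work mainly as partners in heterodimers. The ligands are made as membrane-anchored precursors that cell-surface proteases release, so a cell can signal to itself or to its neighbours. In lung cancer EGFR is a known oncogene and drug target.

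All 12 arrays came from H1299-Dendra2 cells, a line of human non-small cell lung cancer with stable expression of Dendra2, a fluorophore that light turns from green to red. The cells grew as spheroids that invaded Matrigel, with no drug or genetic treatment that differed between groups. Leader cells headed an invading chain and follower cells trailed behind them. Both were picked under the microscope by photoconversion, freed with dispase and sorted. The 2 control groups held invasive cells, photoconverted in one group and not in the other. There were 3 arrays per group, and amplified RNA of a well of 10 cells was used for each, so 1 cell line and few cells stand behind every value. No source used here says that the wells were separate cultures, so a p-value covers only the spread among these samples. The comparison of leader with follower cells asked what separates the cells at the front of a chain from those behind, and the comparison of the control groups asked what photoconversion itself does.

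The deposited values are log2 signals, and a log2 difference of 1 is a 2-fold difference. The medians of the arrays lay between 2.81 and 2.91, and between 76 (follower replicate 3) and 332 genes (invasive non-photoconverted replicate 2) were above 6. Pearson correlations between arrays, computed across genes, ranged from 0.54 to 0.76. Leader replicate 2 and non-photoconverted replicate 1 correlated best with an array of their own group, and every other array with one of another group. Follower replicate 3 correlated at most at 0.62 with any other array. VIM (vimentin), which H1299 cells are known to express, had a mean of 6.03. The keratins KRT8 and KRT18, also listed for the line, had means of 3.20 and 3.86, and 3 of the 4 genes of that list were measured. Markers of leukocytes (CD14, mean 2.76, and LYZ, 2.57), endothelial cells (PECAM1, 3.18) and fibroblasts (DCN, 2.26, and LUM, 2.46) lay below the upper quartile of the means of all genes, 3.22, as did KRT8. PTPRC and CDH1 were not analysed here. With pools of cells, fewer cells that express a gene and less RNA per cell cannot be told apart.

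All measured ERBB receptors and ligands gave low signals. Their means over the 12 arrays ran from 2.43 (EREG) to 3.18 (BTC), inside a narrow range that most genes shared, since the quartiles of the mean over all genes were 2.64 and 3.22. The probesets of different genes bind with different strength and no detection call was used, so these positions rank no gene above another in expression. The SD of a member over all 12 arrays ran from 0.19 (EGFR) to 0.49 (ERBB4), beside a median SD of 0.32 over all genes.

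**Figure D1:**
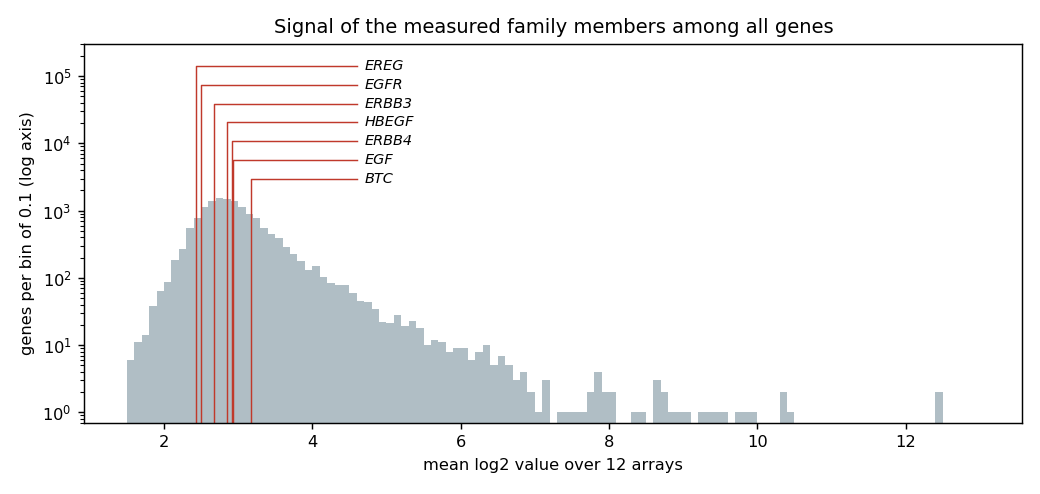
Histogram of the mean log2 value over 12 arrays (x axis) for all 14884 genes, with the number of genes per bin of 0.1 on a log y axis; red lines mark the 7 measured ERBB receptors and ligands. The members lie between 2.43 and 3.18, where most genes lie, and far below the highest signals.

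No member differed between leader and follower cells beyond the spread between arrays. In limma over all 12 arrays, 0 of the 7 members had an adjusted p under 0.05 in any comparison, and 0 of 14884 genes did. Without adjustment, 0 of 7 members had a p under 0.05 in leader against follower cells, where 613 genes (4.12%) did. The ranges of the leader and follower arrays overlapped for all 7 members, whereas they did not overlap for 8.74% of all genes. The member means were higher in leader cells for 3 genes (ERBB4, EREG and BTC) and lower for 4 (EGFR, ERBB3, EGF and HBEGF). The median member difference was -0.11, beside 0.0022 over all genes. The procedure described in the methods, which permutes differences between pairs of arrays 500 times, was rebuilt here from its description. Both of its statistics had to reach the observed ones, and its counts differ from those in the paper. It called 447 genes higher (3.15%) and 346 lower (2.44%) in leader cells, and none of the 7 members. That procedure treats the pair differences as independent of each other.

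**Figure D2:**
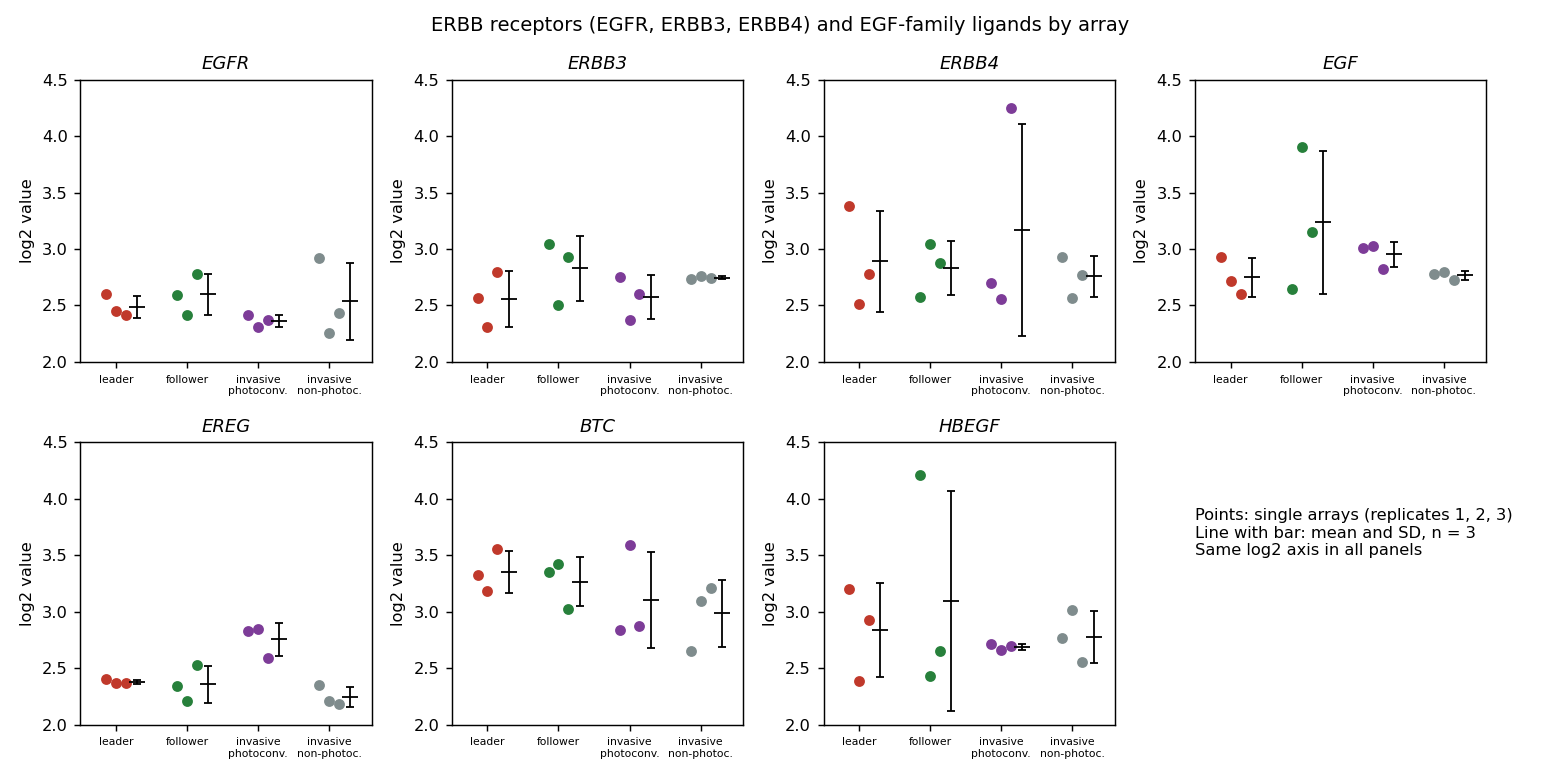
Log2 value (y axis) of each measured ERBB receptor and ligand on each of the 12 arrays, by group (x axis); points are arrays, and the line with the bar is the mean and SD (n = 3). Leader and follower points overlap in every panel, the 3 photoconverted points of EREG lie at 2.59 to 2.85 above all others of that gene, and single arrays stand high for HBEGF, EGF and ERBB4.

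EGFR, the receptor for EGF, TGFA, AREG and several other ligands, had the narrowest spread of the measured members. It read 2.60, 2.45 and 2.41 on leader arrays, 2.59, 2.42 and 2.78 on follower arrays, 2.41, 2.31 and 2.37 on photoconverted arrays and 2.92, 2.26 and 2.44 on non-photoconverted arrays. Leader and follower values were interleaved, and the highest and the lowest reading both came from the non-photoconverted group. Leader minus follower was -0.11 with a standard error of 0.19 and a 95% confidence interval of -0.53 to 0.31 (limma, adjusted p = 1.00). By group mean the order was follower (2.60), non-photoconverted (2.54), leader (2.49) and photoconverted (2.36), and no neighbours in it differed by as much as the larger of their SDs, except leader and photoconverted cells, whose means lay 0.13 apart with SDs of 0.098 and 0.054. All 3 follower values lay above all 3 photoconverted ones, at a difference of 0.23 (standard error 0.19, adjusted p = 0.998), while the share of all genes without overlap in that comparison was 9.14%. The lowest follower value, 2.42, was close to the highest photoconverted value, 2.41.

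Across the 12 arrays, the genes whose values followed EGFR most closely were CDC42EP3, an effector of the GTPase CDC42 (Pearson r = 0.94, Spearman rho = 0.90), the desmosomal cadherin DSG1 (0.91 and 0.88) and LCE1B (0.91 and 0.84). They were the closest of 14884 genes over only 12 arrays and are given as a description.

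ERBB3, the neuregulin receptor that signals through its dimer partners, read 2.56, 2.31 and 2.80 on leader arrays, 3.04, 2.51 and 2.93 on follower arrays, 2.76, 2.37 and 2.60 on photoconverted arrays and 2.73, 2.76 and 2.75 on non-photoconverted arrays. The follower mean was the highest (2.83) and the leader mean the lowest (2.56), but replicate 2 of the follower group lay below the highest leader value. The difference was -0.27 with a standard error of 0.20 and an interval of -0.70 to 0.16 (adjusted p = 1.00). The non-photoconverted arrays agreed closely with each other (SD 0.013), unlike the other groups, whose SDs ran from 0.19 to 0.28. In order of mean, follower, non-photoconverted (2.75), photoconverted (2.58) and leader cells formed a series in which no neighbours differed by more than the larger SD of the pair.

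ERBB4, a neuregulin receptor with an active kinase that also binds BTC, EREG and HBEGF, was dominated by single arrays. It read 3.38, 2.52 and 2.78 on leader arrays, 2.57, 3.04 and 2.87 on follower arrays, 2.70, 2.56 and 4.25 on photoconverted arrays and 2.93, 2.57 and 2.77 on non-photoconverted arrays. The reading of 4.25 on photoconverted replicate 3 was the highest for this gene, and the next was 3.38 on leader replicate 1. The group means were 3.17 in photoconverted, 2.89 in leader, 2.83 in follower and 2.76 in non-photoconverted cells, and the SD of the photoconverted group was 0.94, so no neighbours were separated by their spread. Photoconverted minus non-photoconverted was 0.41 with all arrays and -0.13 without photoconverted replicate 3. Leader minus follower was 0.062 (standard error 0.39), with the widest interval among the receptors, -0.80 to 0.93.

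EREG (epiregulin), a ligand of EGFR and ERBB4 that can act over short distances between neighbouring cells, was the member whose groups stood farthest apart relative to their spread. It read 2.40, 2.37 and 2.37 on leader arrays, 2.34, 2.20 and 2.53 on follower arrays, 2.83, 2.85 and 2.59 on photoconverted arrays and 2.35, 2.21 and 2.18 on non-photoconverted arrays. The 3 invasive photoconverted arrays lay above all 9 others, and the leader arrays lay within the range of the follower arrays. Of all genes, 0.37% had every photoconverted array above every other array. That pattern was not a planned comparison and was counted for this group only, so the share does not measure how unusual EREG was. The means were 2.76 ± 0.15 (SD, n = 3) in photoconverted, 2.38 ± 0.019 (SD, n = 3) in leader, 2.36 ± 0.16 (SD, n = 3) in follower and 2.25 ± 0.091 (SD, n = 3) in non-photoconverted cells. The gap between photoconverted and leader cells was larger than their SDs, whereas the gaps between leader and follower cells and between follower and non-photoconverted cells, the next neighbours in this order, were smaller than the follower SD. The 3 leader arrays lay above the 3 non-photoconverted arrays, whose highest value was 2.35, and this pair was not tested.

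EREG was higher in photoconverted than in non-photoconverted cells by 0.51 with a standard error of 0.16 and an interval of 0.17 to 0.85. The unadjusted limma p was 0.0074 and the adjusted p was 0.915, so the difference did not pass the test across 14884 genes, of which 4.86% had an unadjusted p under 0.05. Against the same photoconverted arrays, leader cells read lower by -0.38 (unadjusted p = 0.0338) and follower cells by -0.40 (unadjusted p = 0.0271), where 3.9% and 4.21% of genes had such a p. These 3 comparisons share the photoconverted arrays. In a test of whether any of the 4 groups differed, EREG had an unadjusted p of 0.0362 and an adjusted p of 0.968, and 4.96% of genes had an unadjusted p under 0.05. The leader minus follower difference of EREG was 0.019 (standard error 0.16), and it differed from the control difference by -0.49 (standard error 0.22, unadjusted p = 0.0482, adjusted p = 0.996), where 3.65% of genes had such a p. The methods leave out of the leader and follower comparison any gene that differs between the controls, and by the methods' t-test EREG was one of 686 genes (4.61%) left out, none of which passed after Benjamini-Hochberg adjustment. Leader and follower cells were photoconverted as well, and by mean both read closer to the non-photoconverted than to the photoconverted invasive cells. Neither was tested against the non-photoconverted cells, and the cause of the EREG values was not tested.

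The stretch just before the EREG transcription start is shown because EREG was the member with the clearest separation between groups. It is 250 bases of the plus strand of chromosome 4 (chr4:74364895-74365144, RefSeq, GRCh38.p14), and the capitals mark the TATA box motif TATAAA, whose first base lies 32 bases before the start.
EREG: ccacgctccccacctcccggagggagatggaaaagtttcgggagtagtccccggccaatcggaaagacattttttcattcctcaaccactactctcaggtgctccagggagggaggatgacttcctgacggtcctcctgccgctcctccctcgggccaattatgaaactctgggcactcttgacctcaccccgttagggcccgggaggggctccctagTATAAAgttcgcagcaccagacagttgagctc
Searched on both strands, TATAAA was present in 10.7% of 35116 promoter windows of the same length, and a match is a description of the letters only. EREG lies in a row of EGF-family genes on chromosome 4, in which EPGN, EREG, AREG and BTC follow each other among the protein-coding genes in RefSeq. Of these neighbours EPGN (epigen) and BTC were measured. EPGN read 3.26, 2.03 and 2.30 on the photoconverted arrays, and its values there spanned nearly all of its range over the 12 arrays.

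EGF, the founding ligand of the family and a ligand of EGFR, had the largest leader minus follower difference of the 7 members, which did not pass the test. It read 2.93, 2.72 and 2.60 on leader arrays, 2.65, 3.91 and 3.15 on follower arrays, 3.01, 3.03 and 2.83 on photoconverted arrays and 2.78, 2.80 and 2.73 on non-photoconverted arrays. Follower replicates 2 and 3 lay above every leader array, and follower replicate 1 lay among them. The difference was -0.49 with a standard error of 0.26 and an interval of -1.07 to 0.092 (unadjusted p = 0.0912, adjusted p = 1.00). Without follower replicate 2 it was -0.15. The photoconverted arrays did not overlap with the non-photoconverted arrays, at a difference of 0.19 (standard error 0.26), and such a lack of overlap was seen in 9.75% of all genes. The order of the means was follower (3.24), photoconverted (2.95), non-photoconverted (2.77) and leader (2.75), and follower and photoconverted means lay within the follower SD of 0.63. The gap of 0.19 between the control groups exceeded their SDs of 0.11 and 0.037, and that between non-photoconverted and leader cells was within the leader SD of 0.17. EGF and EREG were the 2 members without overlap between the control groups.

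BTC (betacellulin), a ligand of EGFR and ERBB4, read 3.32, 3.18 and 3.55 on leader arrays, 3.35, 3.43 and 3.02 on follower arrays, 2.84, 3.59 and 2.88 on photoconverted arrays and 2.65, 3.10 and 3.21 on non-photoconverted arrays. Every group overlapped with every other. The means fell in the order leader (3.35), follower (3.27), photoconverted (3.10) and non-photoconverted (2.99), with SDs of 0.19 to 0.42 that exceeded the gaps between neighbours. Leader minus follower was 0.087 with a standard error of 0.24 and an interval of -0.44 to 0.62.

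HBEGF, a heparin-binding ligand of EGFR and ERBB4 and an early target of growth factor signalling itself, read 3.20, 2.38 and 2.93 on leader arrays, 4.21, 2.43 and 2.65 on follower arrays, 2.71, 2.66 and 2.70 on photoconverted arrays and 2.77, 3.02 and 2.56 on non-photoconverted arrays. Follower replicate 1 stood alone at 4.21, while the other 2 follower arrays were among the 4 lowest readings. The SD was 0.97 in follower cells and 0.029 in photoconverted cells, and the order of the means was follower (3.10), leader (2.84), non-photoconverted (2.78) and photoconverted (2.69), in which no neighbours were separated by their spread. Leader minus follower was -0.26 (standard error 0.39, interval -1.12 to 0.61) and became 0.30 without follower replicate 1.

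The members did not vary together in one direction across arrays. Over the 21 pairs of measured members, Pearson r across the 12 arrays ran from -0.45 (EGFR and BTC) to 0.61 (ERBB3 and HBEGF), and 9 pairs were positive. The single high readings fell on different arrays, with ERBB4 on photoconverted replicate 3, HBEGF on follower replicate 1 and EGF on follower replicate 2.

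**Figure D3:**
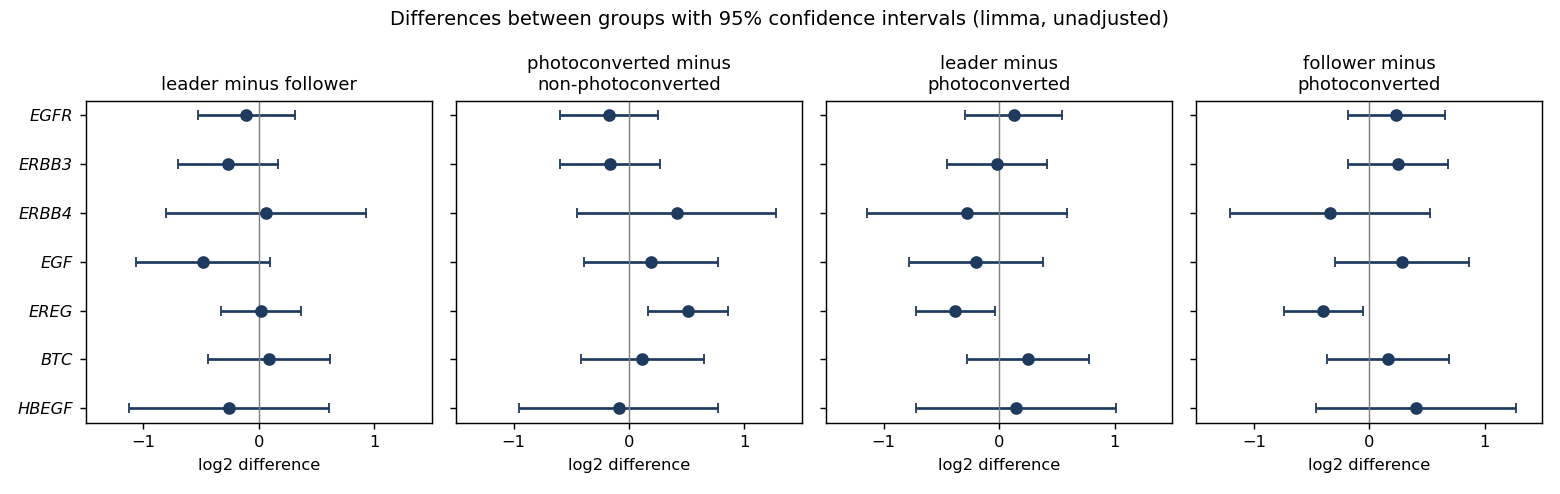
Log2 difference (x axis) of each measured ERBB receptor and ligand in 4 comparisons, with limma's unadjusted 95% confidence interval as the bar. The intervals include 0 except for EREG in the 3 comparisons that involve the photoconverted arrays, at 0.51, -0.38 and -0.40.

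In the other comparisons the members went in both directions. Photoconverted minus non-photoconverted was higher for 4 members and lower for 3, with a median of 0.12 beside 0.017 over all genes. Leader minus photoconverted was higher for 3 and lower for 4, with a median of -0.020, and only EREG did not overlap there, as for 9.54% of all genes. Follower minus photoconverted was higher for 5 and lower for 2, with a median of 0.23 beside -0.0054 over all genes. EGFR and EREG did not overlap there, in opposite directions, as for 9.14% of all genes. For EGFR the lowest follower value, 2.42, was close to the highest photoconverted value, 2.41. The median over members of photoconverted minus non-photoconverted was -0.095 without photoconverted replicate 3 and -0.066 without photoconverted replicate 2.

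The remaining ligands of the family are EPGN, which binds EGFR, and the neuregulins NRG1 to NRG4, which bind ERBB3, ERBB4 or both. All 5 were measured. In leader against follower cells, 3 had higher and 2 lower means, and none passed an unadjusted p of 0.05. NRG2 read 4.10, 3.78 and 3.79 on leader arrays and 3.70, 3.70 and 3.14 on follower arrays, without overlap, at a difference of 0.38 (standard error 0.22, adjusted p = 1.00). Such a lack of overlap with leader cells higher was seen in 5.01% of all genes. NRG4 differed by 0.38 (standard error 0.27), EPGN by -0.38 (standard error 0.34) and NRG1 by -0.048 (standard error 0.33). NRG1, the best known ligand of ERBB3, read 3.24, 4.03 and 2.41 on photoconverted arrays and 2.73, 2.29 and 2.46 on non-photoconverted arrays, and the groups overlapped although the unadjusted limma p was 0.0483 (adjusted p = 0.998).

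Of 10 genes of ligand shedding, the proteases and cofactors that release ligands from the cell surface, 9 were measured. In leader cells 5 had higher and 4 lower means than in follower cells, with a median of 0.095. ADAM15, a membrane metalloprotease, read 2.92, 2.96 and 2.87 on leader arrays and 2.86, 2.51 and 2.68 on follower arrays, just without overlap, at a difference of 0.23 (standard error 0.17, adjusted p = 1.00). Of all genes, 5.01% were higher in leader cells without overlap. ADAM10, which releases EGF and BTC, differed by 0.39 (standard error 0.40), ADAM12 by -0.18 (standard error 0.24) and the iRhom gene RHBDF2, a cofactor of ADAM17, by -0.12.

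Of 20 adaptors and proximal signalling genes, 15 were measured, and 5 were higher and 10 lower in leader than in follower cells by mean, with a median of -0.11. VAV2, a signalling protein that docks on EGFR, differed by 0.38 (standard error 0.19, unadjusted p = 0.0772, adjusted p = 1.00). VAV2 was called higher by the methods' permutation procedure, as were 3.15% of the genes it could call. It read 2.75, 2.83 and 2.88 on leader arrays and 2.77, 2.55 and 2.01 on follower arrays, with overlap at follower replicate 1. The adaptor CRKL differed by 0.44 (standard error 0.28), the adaptor SHC1 by -0.38 (standard error 0.32) and the RAS exchange factor SOS1 by -0.35 (standard error 0.30).

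Of 27 symbols listed for receptor turnover and inhibition, among which ERBIN and ERBB2IP name the same gene, 17 were measured. The leader mean was the higher one for 8 and the lower one for 9, with a median difference of -0.10. ERRFI1 (MIG6), a feedback inhibitor that binds the EGFR kinase domain, read 3.17, 2.86 and 3.13 on leader arrays and 3.40, 3.69 and 3.14 on follower arrays, at a difference of -0.35 (standard error 0.20, adjusted p = 1.00). The groups overlapped at one follower array. The feedback inhibitor SPRY4 differed by -0.33 (standard error 0.24), and LRIG2 and LRIG1, transmembrane regulators of ERBB receptors, by 0.27 (standard error 0.26) and 0.14 (standard error 0.18). In these 4 lists together, no gene passed an unadjusted p of 0.05 in leader against follower cells.

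**Figure D4:**
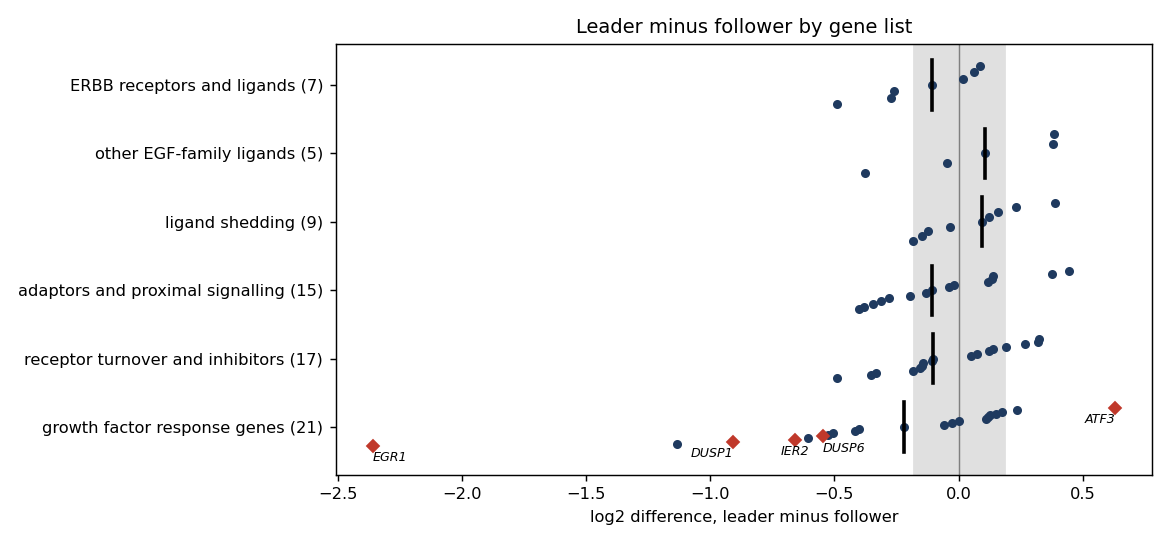
Leader minus follower log2 difference (x axis) of each measured gene in the ERBB family and in 5 related gene lists (rows, number of genes in brackets), with the list median as a black bar and the middle 50% of all 14884 genes shaded. Red diamonds are genes with an unadjusted p under 0.05, all 5 of which are growth factor response genes.

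Growth factor response genes, which are transcribed within minutes to hours of ERK signalling from ERBB and many other receptors, gave the widest differences. Of 25 such genes 21 were measured, and 13 had lower and 8 higher means in leader than in follower cells. The median was -0.22, beside 0.0022 over all genes. None passed after adjustment. Without adjustment, 4 had a p under 0.05 and were lower in leader cells (EGR1, IER2, DUSP1 and DUSP6), where 1.98% of all genes were, and 1 was higher (ATF3), where 2.14% were. Without overlap, 6 were lower, which adds FOS and ETV5, and 1 was higher, beside 3.73% and 5.01% of all genes. The list was chosen with earlier results of these data known and is not independent evidence of a direction. The cause of these differences, in ERBB signalling, other signals or the handling of the cells, was not tested. Leaving out leader replicate 2 or follower replicate 3 changed the count of lower genes with such an unadjusted p to 2, and leaving out leader replicate 3 changed it to 5. The count of higher genes became 0 without leader replicate 3, follower replicate 2 or follower replicate 3.

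DUSP1, an immediate early phosphatase that switches off MAP kinases, read 2.81, 2.36 and 2.53 on leader arrays, 3.53, 3.49 and 3.41 on follower arrays, 2.99, 3.79 and 2.90 on photoconverted arrays and 2.66, 2.96 and 3.43 on non-photoconverted arrays. The leader arrays lay below all follower and photoconverted arrays and overlapped with the non-photoconverted ones. Leader minus follower was -0.91 with a standard error of 0.26 (unadjusted p = 0.00533, adjusted p = 1.00). DUSP6, a phosphatase of ERK that ERK signalling itself induces, read 2.84, 2.33 and 2.67 on leader arrays and 2.97, 3.25 and 3.26 on follower arrays, at a difference of -0.55 (standard error 0.21, unadjusted p = 0.0259, adjusted p = 1.00). On photoconverted arrays it read 2.51, 2.49 and 2.92, so the follower arrays were the high group for this gene. Both genes were called lower in leader cells by the methods' permutation procedure, as were 2.44% of the genes it could call.

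EGR1, a zinc finger transcription factor induced by growth factors and by many stresses, read 6.85, 9.87 and 9.92 on leader arrays, 10.90, 11.22 and 11.59 on follower arrays, 8.99, 11.28 and 10.71 on photoconverted arrays and 5.53, 8.57 and 9.29 on non-photoconverted arrays. Its SD over the 12 arrays was 1.86, beside a median of 0.32 over all genes. Every follower array lay above every leader array, at a difference of -2.36 (standard error 1.02, unadjusted p = 0.0399, adjusted p = 1.00), which was -1.34 without leader replicate 1. Photoconverted cells were higher than non-photoconverted cells by 2.53 (standard error 1.02, unadjusted p = 0.0297, adjusted p = 0.982), and these groups overlapped. In the methods' permutation procedure EGR1 was not called.

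The EGR1 promoter is shown because it carries a known response element of growth factor signalling, the CArG box that serum response factor binds, and because EGR1 had the largest difference among these genes. The 250 bases before the start lie on the plus strand of chromosome 5 (chr5:138465229-138465478, RefSeq, GRCh38.p14), and the capitals mark 2 CArG boxes, whose first bases lie 105 and 83 bases before the start.
EGR1: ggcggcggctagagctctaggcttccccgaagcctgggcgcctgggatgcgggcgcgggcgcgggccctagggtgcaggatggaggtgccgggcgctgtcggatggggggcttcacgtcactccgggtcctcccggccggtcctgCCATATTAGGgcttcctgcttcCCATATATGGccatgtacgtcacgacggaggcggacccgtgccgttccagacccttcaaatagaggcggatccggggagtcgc
Searched on both strands, a CArG box was present in 1.16% of 35116 promoter windows of that length. The match describes the letters and does not show that the factor was bound in these cells.

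IER2, an immediate early gene, read 2.60, 2.94 and 3.24 on leader arrays, 4.01, 3.33 and 3.42 on follower arrays, 3.21, 3.56 and 3.84 on photoconverted arrays and 4.11, 4.46 and 3.51 on non-photoconverted arrays. Leader minus follower was -0.66 (standard error 0.29, unadjusted p = 0.0437, adjusted p = 1.00), and the non-photoconverted group had the highest mean. ATF3, a transcription factor induced by stress as well as by growth factors, read 3.05, 3.03 and 4.003 on leader arrays, 2.89, 2.62 and 2.68 on follower arrays, 2.91, 2.62 and 2.63 on photoconverted arrays and 3.37, 3.08 and 3.72 on non-photoconverted arrays. Leader and non-photoconverted arrays lay above all follower and photoconverted arrays, and leader minus follower was 0.63 (standard error 0.27, unadjusted p = 0.0374, adjusted p = 1.00). Without leader replicate 3 it was 0.31. The methods' t-test left ATF3 out as differing between the controls. DUSP4, the phosphatase with the next smallest p among genes higher in leader cells, differed by 0.24 (standard error 0.20).

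**Figure D5:**
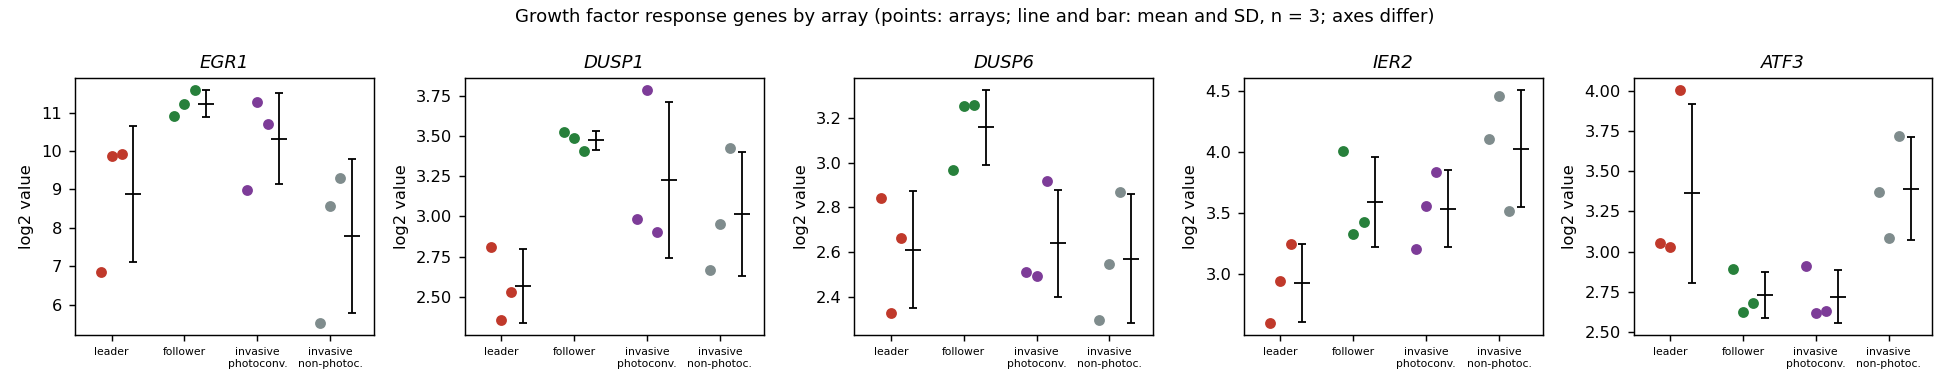
Log2 value (y axis, a separate scale in each panel) of EGR1, DUSP1, DUSP6, IER2 and ATF3 on each of the 12 arrays by group (x axis); points are arrays, and the line with the bar is the mean and SD (n = 3). The 3 follower points lie above the 3 leader points for the first 4 genes and below them for ATF3.

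The 3 arrays per group limited what could be seen for the family. The half-width of the unadjusted 95% interval for leader minus follower ran from 0.34 (EREG) to 0.87 (HBEGF and ERBB4). For HBEGF and ERBB4 a difference of up to that size in log2 could not be told from 0 even without adjustment. After adjustment over all genes larger differences could be missed as well, as DUSP1 did not pass at -0.91 (standard error 0.26).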

How the data were processed

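RNA of 10 cells per well was amplified (Ovation One-Direct) and measured on Affymetrix Human Gene 2.0 ST arrays, with 3 arrays in each of 4 groups. The authors deposited log2 values per probeset that they had adjusted for GC content, corrected for background with RMA, quantile normalized and averaged per probeset in Partek 6.6, per the study's methods and the submitters' processing notes. The build behind the array annotation was not given in the sources used here.

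Of 53617 probesets, 16098 carried 1 symbol in the platform annotation, 0 several and 37519 none, and the probeset with the highest mean stood for each of 14884 symbols. Groups were compared with limma 3.58.1 in R 4.3.3 (4 groups in 1 fit, two-sided, Benjamini-Hochberg over 14884 genes, threshold 0.05). The methods' permutation procedure, rebuilt from its description, and t-test were run in Python 3.11.15 with SciPy 1.17.1.

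The members and gene lists were chosen with earlier results of these data known. All measured members are named, and of each other list up to 4 genes with the smallest unadjusted leader against follower p, 2 in each direction. EGR1 and IER2, the genes without overlap and genes of other comparisons were named after their values were seen. On simulated data for leader minus follower with 200 of 14884 genes changed, limma called 33% of genes changed by 1 in log2, 88% of those changed by 2, and 6 unchanged genes. The alternatives were other normalizations, filters, features, weights and a replicate block, leaving out each array, and the methods' tests. For the response genes these were added after the data were seen. Sequences came from RefSeq tables, in which 9 of the 10 members had a promoter.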

Additional observations from a re-analysis of the deposited data

How the results depend on the processing

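Under 20 other settings, none of the 28 member differences passed the adjusted threshold, and the lowest adjusted p was 0.736 (EREG). Many of the 544 recomputed member differences could not change. They stay the same with the probeset mean, all probesets, the replicate block or only the compared arrays. They also stay the same when an array of a group outside the comparison is left out. Of the 544, 18 changed sign, all with 1 array left out, in 14 of the 28 differences. Leader minus follower then ran from -0.18 to 0.25 for ERBB4, -0.057 to 0.11 for EREG, -0.035 to 0.17 for BTC and -0.59 to 0.30 for HBEGF. Photoconverted minus non-photoconverted ran from -0.31 to 0.017 for EGFR, -0.13 to 0.72 for ERBB4, -0.13 to 0.25 for BTC and -0.20 to 0.028 for HBEGF. Leader minus photoconverted ran from -0.14 to 0.10 for ERBB3, -0.58 to 0.26 for ERBB4 and -0.034 to 0.38 for HBEGF, and follower minus photoconverted from -0.64 to 0.20 for ERBB4, -0.052 to 0.58 for EGF and -0.15 to 0.74 for HBEGF. EREG kept its direction between the control groups, at 0.46 to 0.59. The median member difference ran from -0.18 to -0.031 for leader minus follower, -0.095 to 0.17 for photoconverted minus non-photoconverted, -0.13 to 0.13 for leader minus photoconverted and 0.083 to 0.26 for follower minus photoconverted.

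With only genes whose mean exceeded the median level of 2.89, 7442 genes were left, EGFR, ERBB3, EREG and HBEGF dropped out, and the median over the other 3 members was 0.062 for leader minus follower and -0.20 for leader minus photoconverted. With only the compared arrays in the fit, 1 gene passed between the control groups. With 1 array left out, 0 to 4 genes passed in the control, leader minus photoconverted, follower minus photoconverted and 4-group tests (4 without photoconverted replicate 1), and 0 to 1 in leader minus follower (1 without leader replicate 3) and in its test against the control difference (1 without photoconverted replicate 1). The methods' t-test gave 1 member (EREG) unadjusted and 0 after adjustment. For the response genes, the median was -0.40 with the filter on level, where 2 genes were lower, and no gene was higher with only the compared arrays or with array weights.

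The labels do not say whether replicate numbers pair the samples. Deviations of same-numbered arrays from their group means correlated at -0.071 to 0.22 over 18 pairs, with 3 over 0.1. Among arrays of other groups, 5 of 12 arrays correlated best with one of their own number. These values do not settle whether the samples were paired, since no range for differently numbered arrays was set beside them. With the replicate block, 0 members and 0 genes passed in leader minus follower, as without it. The cause of these shifts was not tested. Small pools of amplified RNA, 3 arrays per group and low signals limit every value, and no detection call separates a low signal from none.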
